A study of Rattus norvegicus with 19 samples.

Results

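Cell cycle genes from DNA replication to cell division were followed in rat Leydig cells and their precursors, as a set of 44 genes taken by symbol from the array's annotation. A gene was measured where at least 1 probe set carried its symbol alone, and by the brightest such probe set over all arrays. That held for 41 of the 44 genes, out of 14217 genes with such a probe set on the array. They comprised 10 of 12 S phase genes, all 8 G1 genes (cyclins, kinases and E2f1), 19 of 20 mitotic genes and all 4 kinase inhibitors. Cdc6 and Tpx2 had no probe set of their own symbol, and Rrm2 had 2, both annotated to several symbols; the 3 genes were not analysed here. The arrays, Affymetrix expression arrays with 1 sample each, held cells of the Sprague-Dawley strain in 5 groups: 5 samples of stem Leydig cells, 3 of progenitor, 4 of immature and 4 of adult Leydig cells, and 3 of bone stem cells. No treatment or altered allele is named for any group. The labels give neither the animals' ages nor how cells were isolated or grown, and they do not say that replicates were different animals or cultures. The p-values therefore rest on the spread among these arrays, part of which may be technical.

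In a dividing cell, D-type and E-type cyclins with their kinases open G1, the phosphorylated retinoblastoma protein releases E2F factors, and the replication machinery is transcribed and loaded onto DNA. Cyclin A and cyclin B with Cdk1 then drive mitosis, while the Cip/Kip and Ink4 inhibitors hold the kinases back. Leydig cells, the testosterone-producing cells of the testis interstitium, arise from spindle-shaped precursors that divide, pass through a progenitor and an immature stage, and become adult cells that rarely divide. The 5 comparisons below ask how this machinery differs between each stage and the one before it, between the last and the first stage, and between the stem cells of the Leydig lineage and those of bone.

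Signals are in the authors' MAS5 units, scaled by the same trimmed mean of 100 on each array. Array medians lay between 18.9 and 36.6. The share of probe sets with a signal under 16 lay between 29.1% and 47.3%, and no detection calls were used, so low signals have no tested floor. Changes are differences of log2(signal + 16), which understate the change of dim genes. They are given with the standard error (SE) from limma's moderated test, and "called" means a Benjamini-Hochberg adjusted p under 0.05 over 31042 probe sets. Progenitor replicate 3 stood apart in RNA integrity: its ratio of the 3' to the 5' probe set of Actb was 6.35, against 1.03 to 2.95 on the other 18 arrays. Of 8 Leydig markers the summed signal was 370 to 1600 in stem cells, 14366 to 22449 in progenitor cells, 12355 to 22836 in immature cells and 21318 to 32220 in adult cells, and 83.4 to 614 in bone stem cells. In the cells labelled stem Leydig cells 6 of the 8 markers averaged under the mean array median. The steroid enzymes Cyp17a1 and Cyp11a1 had means of 1.09 and 15.7 there. The 8 bone and mesenchymal markers measured summed to 4797 to 7707 in stem cells and to 7170 to 8452 in bone stem cells, against at most 2677 in the 3 later Leydig stages. Singly, 3 of the 8 were called higher and 4 lower in progenitor over stem cells, against 22.0% and 14.7% of all probe sets. In stem over bone stem cells 1 was called higher and 4 lower, against 9.79% and 8.73%. The sums thus do not hold for each marker. In such bulk samples fewer dividing cells and less RNA per dividing cell cannot be told apart.

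Promoter sequences were available in RefSeq (rat build GRCr8) for 32 of the 41 measured genes, and the 250 bases before each start were searched on both strands. Many mitotic promoters are known to be read through CCAAT boxes (CCAAT, or ATTGG on the other strand), bound by NF-Y, and a cell cycle homology region (TTTGAA or TTCAAA), bound by the DREAM complex; S phase promoters are known for E2F sites, searched here in 4 spellings (TTTGGCGC, TTTCCCGC, TTTCGCGC and TTTGCCGC). The CCAAT and TTTGAA letters stood together in 8 of 16 mitotic promoters (50.0%) and in none of 9 S phase promoters, against 5.87% of all 33469 promoters of the table. CCAAT alone was in 13 of 16 mitotic promoters (81.2%) and 6 of 9 S phase promoters (66.7%), against 34.0% of all. An E2F spelling was in 5 of 9 S phase promoters (55.6%: Mcm2, Mcm5, Mcm6, Mcm7 and Tyms) and in 1 of 16 mitotic promoters (6.25%: Cdk1), against 1.73% of all. The 150 bases before the start are shown for 5 mitotic genes that hold CCAAT and TTTGAA letters and for the 4 minichromosome maintenance genes that hold an E2F spelling, because these 2 groups of genes are compared throughout. Capitals mark the matched letters on either strand, and each sequence is written 5' to 3' on the gene's own strand.
Cdc20, chr5:137255800-137255949, minus strand: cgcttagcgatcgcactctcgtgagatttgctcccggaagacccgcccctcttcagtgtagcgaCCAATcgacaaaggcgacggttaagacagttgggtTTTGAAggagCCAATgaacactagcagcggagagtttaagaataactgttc
Ccnb2, chr8:79981659-79981808, minus strand: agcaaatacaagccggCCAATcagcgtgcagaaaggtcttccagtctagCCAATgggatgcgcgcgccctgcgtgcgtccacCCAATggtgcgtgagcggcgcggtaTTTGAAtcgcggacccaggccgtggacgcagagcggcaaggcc
Cdk1, chr20:19265143-19265292, plus strand: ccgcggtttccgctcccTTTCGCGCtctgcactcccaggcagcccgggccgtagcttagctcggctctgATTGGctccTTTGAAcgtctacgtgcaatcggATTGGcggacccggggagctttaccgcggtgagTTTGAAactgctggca
Prc1, chr1:143659331-143659480, plus strand: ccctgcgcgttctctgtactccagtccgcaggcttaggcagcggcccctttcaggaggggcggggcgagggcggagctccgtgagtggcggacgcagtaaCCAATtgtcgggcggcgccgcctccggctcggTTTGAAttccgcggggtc
Mki67, chr1:199952594-199952743, minus strand: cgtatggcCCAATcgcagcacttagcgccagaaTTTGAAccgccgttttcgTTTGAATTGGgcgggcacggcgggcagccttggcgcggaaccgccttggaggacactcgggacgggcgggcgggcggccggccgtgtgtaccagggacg
Mcm2, chr4:122918095-122918244, minus strand: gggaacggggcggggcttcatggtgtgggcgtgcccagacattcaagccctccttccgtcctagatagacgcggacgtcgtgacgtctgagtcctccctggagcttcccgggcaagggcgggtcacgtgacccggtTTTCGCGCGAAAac
Mcm5, chr19:13488663-13488812, plus strand: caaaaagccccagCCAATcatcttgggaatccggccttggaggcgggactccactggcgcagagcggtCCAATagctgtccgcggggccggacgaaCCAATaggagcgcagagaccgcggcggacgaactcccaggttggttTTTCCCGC
Mcm6, chr13:42404353-42404502, minus strand: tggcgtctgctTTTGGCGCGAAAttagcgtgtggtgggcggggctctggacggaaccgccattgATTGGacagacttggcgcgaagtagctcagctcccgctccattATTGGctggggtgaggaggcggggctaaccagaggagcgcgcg
Mcm7, chr12:22163179-22163328, minus strand: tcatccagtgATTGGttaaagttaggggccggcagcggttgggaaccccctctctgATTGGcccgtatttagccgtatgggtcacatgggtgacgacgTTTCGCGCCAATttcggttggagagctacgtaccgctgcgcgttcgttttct
Matches share letters in Mki67 (TTTGAA with ATTGG) and in Mcm7 (an E2F spelling with CCAAT), and the E2F capitals of Mcm2 and Mcm6 hold a spelling on each strand. These matches describe letters and not binding.

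Over the 4 Leydig stages, 39 of the 41 genes differed in limma's F-test, against 50.7% of all probe sets; the exceptions were Cdk4 (adjusted p = 0.41) and Aurka (adjusted p = 0.26). Progenitor cells had the highest mean for 29 of the 41 genes among the 4 stages, and adult cells the lowest for 31. The mean log2(signal + 16) of the 19 mitotic genes was 6.97 ± 0.09 in stem cells, 7.82 ± 0.08 in progenitor cells, 7.29 ± 0.26 in immature cells and 5.50 ± 0.12 in adult cells, and 7.52 ± 0.31 in bone stem cells (SD over arrays). For the 10 S phase genes it was 7.08 ± 0.34 in stem cells, 8.04 ± 0.06 in progenitor cells, 7.61 ± 0.13 in immature cells and 6.70 ± 0.04 in adult cells, and 7.35 ± 0.32 in bone stem cells. Adult arrays thus lay below stem arrays by 1.46 for the mitotic genes and by 0.38 for the S phase genes, and on the S phase measure 1 stem array (replicate 1, at 6.57) lay below all adult arrays.

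**Figure D1:**
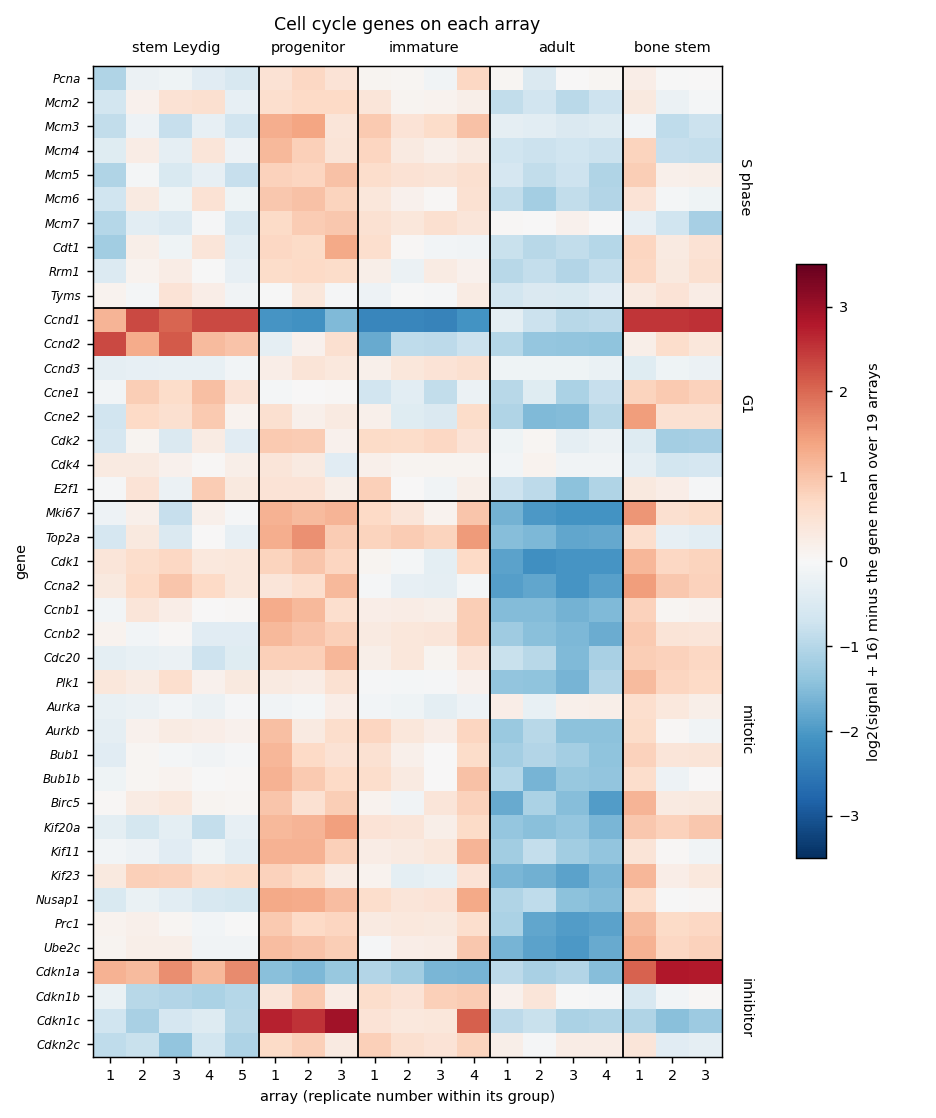
Log2(signal + 16) of the 41 genes (rows, by role) on each of the 19 arrays (columns, by group and replicate), minus the gene's mean over all arrays; red is above and blue below that mean. The mitotic rows are reddest on the progenitor arrays, immature replicate 4 and bone stem replicate 1, and bluest on the adult arrays except for Aurka, while Ccnd1 and Cdkn1a are red on the stem and bone stem arrays alone.

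**Figure D2:**
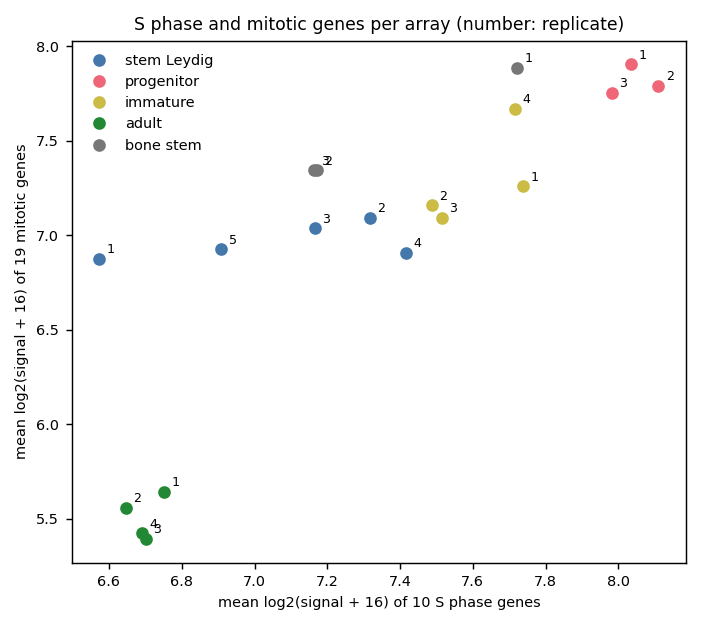
Each point is 1 array, at its mean log2(signal + 16) over the 10 S phase genes (horizontal axis) and over the 19 mitotic genes (vertical axis); numbers are replicates. The 4 adult arrays lie lowest on the vertical axis, between 5.39 and 5.64, and the 3 progenitor arrays lie farthest right, between 7.98 and 8.11.

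Progenitor cells carried more message than stem cells for most replication and mitotic genes, and less of the D-type cyclins Ccnd1 and Ccnd2 and of the inhibitor Cdkn1a. Of the 41 genes, 28 were called higher and 4 lower, and the median change was 0.87; over all probe sets 22.0% were called higher, 14.7% lower and 36.7% in either direction, with a median change of 0.08. Progenitor and stem arrays did not overlap for 28 genes with progenitor higher and 3 with progenitor lower, against 22.5% and 14.1% of all probe sets. By role, 9 of 10 S phase genes were called higher, with a median of 1.0, and 14 of 19 mitotic genes, with a median of 0.91; none of either role was called lower.

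Among the S phase genes, the helicase subunits Mcm2 to Mcm7, which open the DNA ahead of the replication fork, all rose in progenitor cells. Mcm7 had signals of 399, 469 and 487 on progenitor arrays, against 115, 184, 169.5, 235 and 162 on stem arrays, a change of 1.33 ± 0.18 (adjusted p = 4.60e-06). The groups did not overlap for this gene or for the other 8 that rose. Mcm3 changed by 1.59 ± 0.22, with 328, 356 and 176 on progenitor arrays, against 62.9, 110.1, 65.1, 100.1 and 74.0 on stem arrays. Its lowest progenitor value came from replicate 3, the array with the high Actb ratio. Mcm5 changed by 1.42 ± 0.20, Mcm6 by 0.95 ± 0.21, Mcm4 by 0.86 ± 0.28 and Mcm2 by 0.59 ± 0.21. Centring arrays on their medians, or leaving out progenitor replicate 1 or 2, ended the calls of Mcm2 and Mcm4. Of 32 alternatives, Mcm2 was called in 23 and Mcm4 in 29. Pcna, the sliding clamp that holds DNA polymerases on their template, averaged 1398 ± 134 in progenitor cells and 686 ± 159 in stem cells (SD), a change of 1.04 ± 0.20. Cdt1, which loads the helicase at origins, changed by 1.14 ± 0.27, and Rrm1, the large subunit of ribonucleotide reductase, by 0.74 ± 0.15. Tyms, which makes thymidylate, did not pass the test: it averaged 35.7 ± 8.88 in progenitor cells and 35.9 ± 8.92 in stem cells.

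The largest changes among the mitotic genes in progenitor over stem cells were those of Kif20a and Nusap1. Kif20a, a kinesin of the central spindle, had signals of 302, 315 and 370.1 on progenitor arrays, against 98.0, 77.6, 98.3, 64.3 and 102 on stem arrays, a change of 1.74 ± 0.14 (adjusted p = 3.17e-09). Nusap1, which binds spindle microtubules, had 347, 337 and 289 on progenitor arrays, against 83.3, 106, 96.6, 80.9 and 78.9 on stem arrays, a change of 1.70 ± 0.20. For both genes every progenitor array lay above every stem array. Top2a, which untangles chromosomes, changed by 1.46 ± 0.24, Cdc20, an activator of the anaphase-promoting complex, by 1.34 ± 0.16, the spindle motor Kif11 by 1.33 ± 0.20 (0.47 in its dimmer second probe set, not called, adjusted p = 0.186), and the proliferation marker Mki67 by 1.31 ± 0.24. The mitotic cyclins followed with changes of 1.14 ± 0.16 for Ccnb2 and 0.87 ± 0.19 for Ccnb1. Smaller rises were seen for Ube2c, the ubiquitin-conjugating enzyme of the same complex (0.94 ± 0.17), for the checkpoint genes Bub1b (0.93 ± 0.22) and Bub1 (0.91 ± 0.17), for the microtubule bundler Prc1 (0.74 ± 0.16), and for Birc5 (0.61 ± 0.23) and Aurkb (0.57 ± 0.20) of the chromosomal passenger complex. The calls of Birc5 and Aurkb were the least stable of these, made in 21 and 26 of 32 alternatives.

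The 5 mitotic genes Cdk1, Ccna2, Plk1, Aurka and Kif23 did not pass the test between progenitor and stem cells; Cdk1, Plk1 and Aurka encode kinases. Cdk1, the kinase of mitotic entry, had 377, 434 and 369 on progenitor arrays, against 291, 338, 365, 279.9 and 285 on stem arrays; its groups did not overlap, but the change of 0.32 ± 0.17 had an adjusted p of 0.158. Ccna2, the cyclin of S phase and G2, averaged 137 ± 40.4 in progenitor cells and 125 ± 24.9 in stem cells. Plk1, which acts on centrosomes and kinetochores, averaged 108 ± 13.2 in progenitor cells and 107 ± 13.8 in stem cells. The centrosomal kinase Aurka averaged 51.8 ± 9.51 in progenitor cells and 43.6 ± 3.68 in stem cells, and Kif23, a motor of the central spindle, 168 ± 33.9 in progenitor cells and 175 ± 24.3 in stem cells. With arrays centred on their medians, the small positive changes of Ccna2, Plk1 and Aurka became negative and stayed uncalled. Promoters with CCAAT and TTTGAA letters were as frequent among the mitotic genes that rose (6 of 12) as among those not called (2 of 4).

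**Figure D3:**
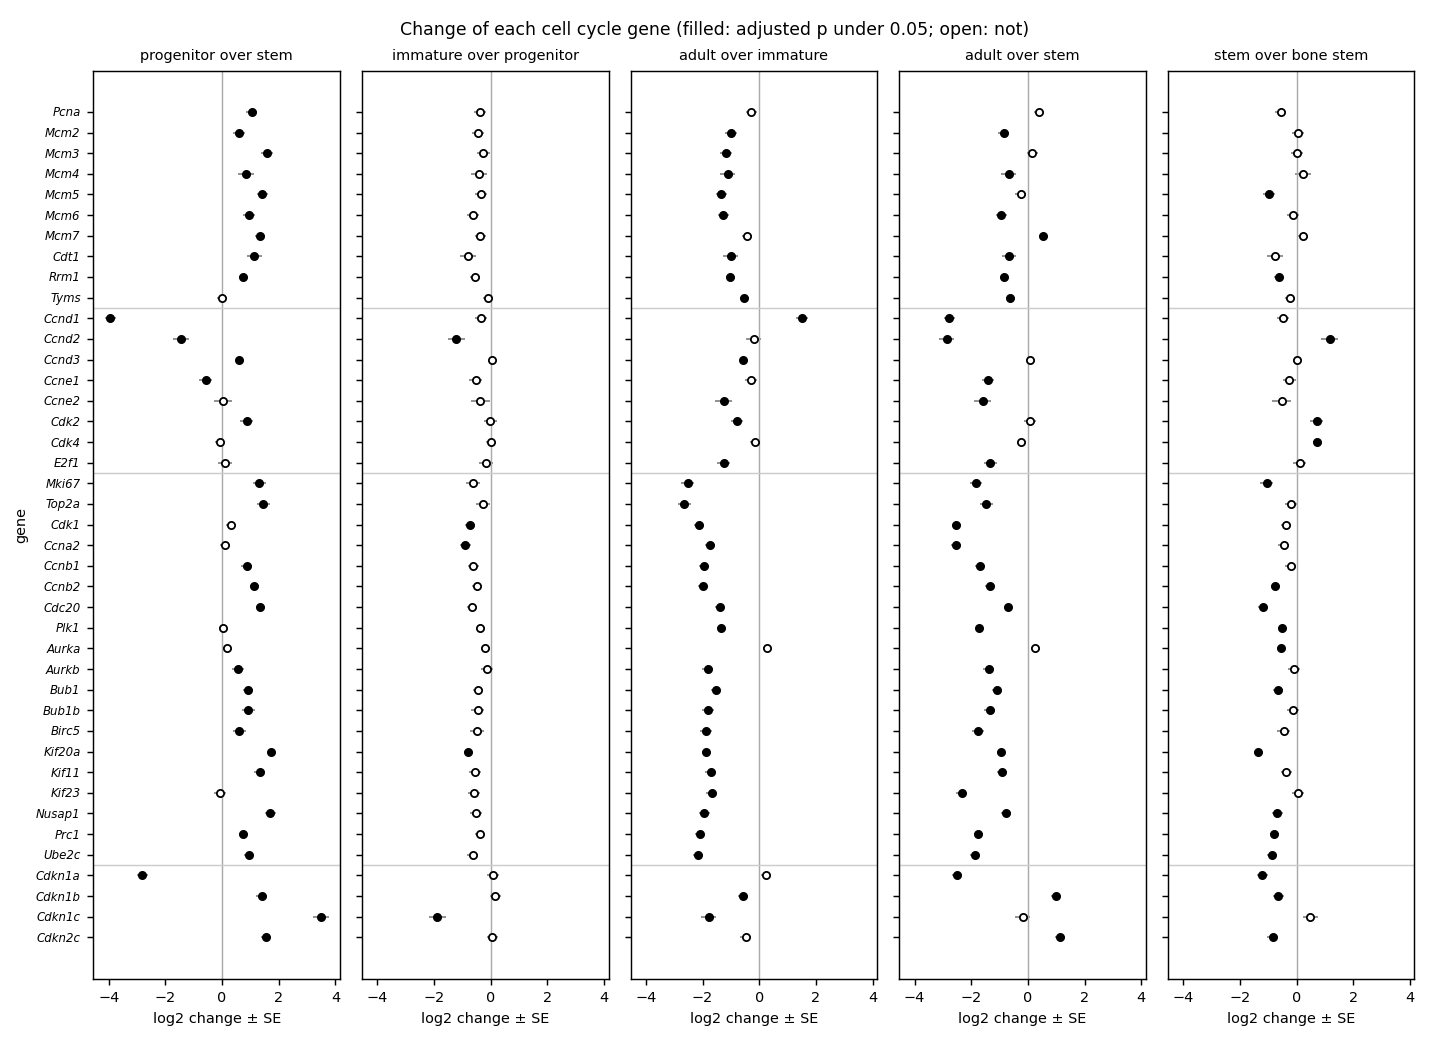
Log2 change with its SE for each of the 41 genes (vertical axis, by role) in the 5 comparisons; filled points were called and open points were not. The called mitotic genes lie right of 0 in progenitor over stem cells, where Kif23 lies just left of 0 and is open, and the mitotic block lies left of 0 in adult over immature cells apart from Aurka, and only 5 points are filled in immature over progenitor cells.

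The G1 genes split by member. Ccnd1, the D-type cyclin that answers growth factors, had signals of 45.9, 43.8 and 72.9 on progenitor arrays, against 578, 1257, 1048, 1279 and 1257 on stem arrays. It fell by 3.94 ± 0.21 on the log2 scale (adjusted p = 8.01e-12). Signals of this gene stayed low on immature arrays (37.2, 37.3, 34.8 and 44.7), and adult arrays lay at 188, 139, 115 and 121, above all immature arrays, a change of 1.5 ± 0.20 in adult over immature cells (adjusted p = 1.76e-05). It was the only one of the 41 genes called higher in adult over immature cells, and adult cells were still lower than stem cells (change -2.78 ± 0.19). Ccnd2 had 79.5, 114 and 159 on progenitor arrays, against 569, 273, 512, 240.1 and 219 on stem arrays, and fell by 1.44 ± 0.29. Ccnd3 ran the other way, with 1173, 1383 and 1294 on progenitor arrays, against 809, 822, 840.0, 840.2 and 943 on stem arrays, a rise of 0.58 ± 0.11 (adjusted p = 0.000241). The groups were apart for each of the 3 D-type cyclins.

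Among the remaining G1 genes, Cdk2, the partner of cyclin E, rose in progenitor over stem cells by 0.87 ± 0.22, with 166, 163 and 90.7 on progenitor arrays, against 48.0, 87.0, 52.3, 102 and 57.1 on stem arrays; progenitor replicate 3 lay within the stem range. Ccne1 fell by 0.58 ± 0.22 (adjusted p = 0.0431), with means of 43.4 ± 2.04 in progenitor cells and 76.2 ± 25.9 in stem cells, and its stem replicate 1 lay at 39.2, below the progenitor arrays; it was called in 18 of 32 alternatives. Ccne2, E2f1 and Cdk4 did not pass: Ccne2 averaged 51.2 ± 9.20 in progenitor cells and 53.8 ± 25.4 in stem cells, and E2f1, the transcription factor of S phase entry, averaged 76.0 ± 9.56 in progenitor cells and 73.0 ± 27.2 in stem cells. Cdk4, the partner of D-type cyclins, averaged 809.7 ± 230.3 in progenitor cells and 838 ± 68.3 in stem cells. The signs of these 3 uncalled changes turned under quantile normalization.

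**Figure D4:**
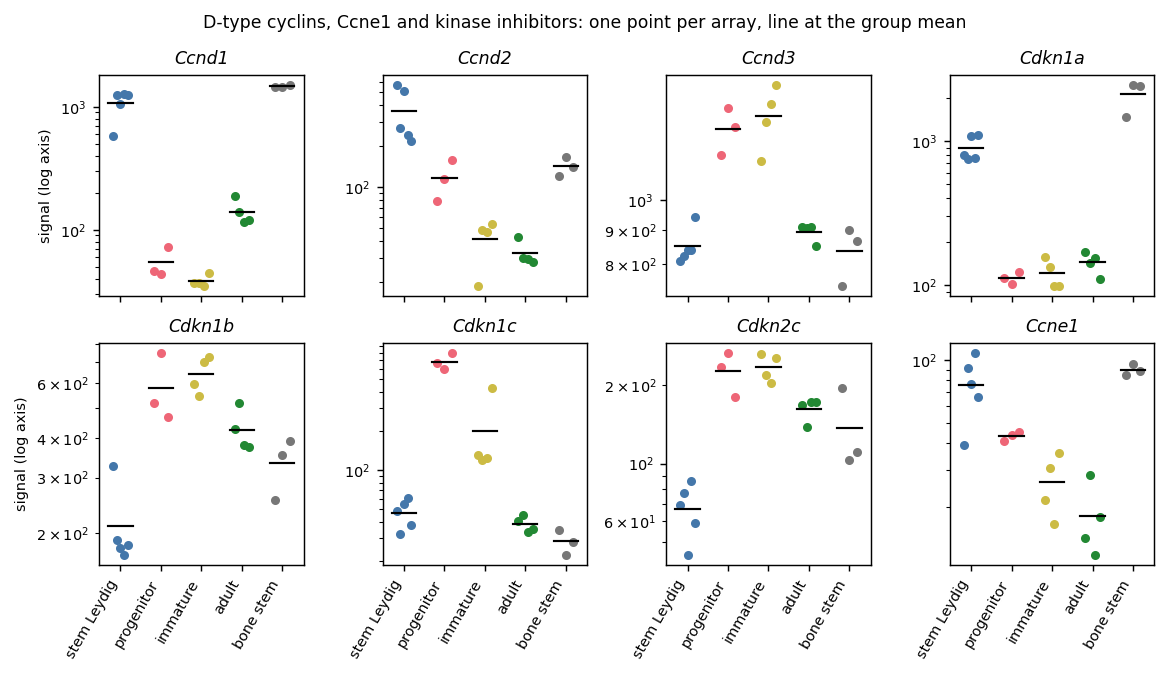
Signal (log axis) of the D-type cyclins, the 4 kinase inhibitors and Ccne1; each point is 1 array and the line is the group mean. Ccnd1 and Cdkn1a lie high on the stem and bone stem arrays and low on all others, and Cdkn1c lies high on the 3 progenitor arrays and on immature replicate 4.

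The 4 inhibitors moved in opposite directions. Cdkn1a (p21), a Cip/Kip inhibitor and a target of p53, had signals of 112, 102 and 123 on progenitor arrays, against 803, 747, 1075, 760.3 and 1096 on stem arrays, and fell by 2.81 ± 0.19 (adjusted p = 2.37e-10). Immature arrays lay between 98.5 and 156 and adult arrays between 110.2 and 169, so the 3 later stages overlapped each other and lay far below the stem arrays. Cdkn1c (p57), another Cip/Kip member, had 663, 594 and 789.7 on progenitor arrays, against 48.7, 32.3, 54.9, 60.6 and 38.1 on stem arrays, a rise of 3.48 ± 0.28 (adjusted p = 3.82e-09) and the highest change among the 41 genes in this comparison. Cdkn1b (p27) had 519, 745 and 466 on progenitor arrays, against 328, 189.7, 179, 171 and 183 on stem arrays, a rise of 1.40 ± 0.20. Cdkn2c (p18), an Ink4 inhibitor of Cdk4 and Cdk6, had 235, 265 and 181 on progenitor arrays, against 69.3, 77.1, 44.6, 85.8 and 59.1 on stem arrays, a rise of 1.55 ± 0.19, while its dimmer second probe set gave 0.38 and was not called (adjusted p = 0.0554). For all 4 inhibitors the progenitor and stem arrays did not overlap. Without the progenitor array with the high Actb ratio, 28 of the 41 genes were called in either direction, against 32 with it.

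Immature cells had lower means than progenitor cells for most of the 41 genes, but few differences passed the test. None was called higher and 5 were called lower, against 0.876% and 0.425% of all probe sets (1.30% in either direction). The median change was -0.44 over the 41 genes and 0.01 over all probe sets. By role the median was -0.52 for the mitotic genes, -0.39 for the S phase genes, -0.25 for the G1 genes and 0.07 for the inhibitors. Immature and progenitor arrays did not overlap, with immature lower, for 16 of the 41 genes and, with immature higher, for none, against 3.59% and 4.46% of all probe sets.

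The 5 called genes were Cdkn1c, Kif20a, Ccna2, Ccnd2 and Cdk1. Cdkn1c had signals of 130.1, 121, 124 and 431 on immature arrays, against 663, 594 and 789.7 on progenitor arrays, and fell by 1.88 ± 0.29 (adjusted p = 0.00164). Replicate 4 of the immature cells lay well above the other immature arrays and still below the progenitor arrays. Kif20a had 184, 176, 151 and 213 on immature arrays, against 302, 315 and 370.1 on progenitor arrays, and fell by 0.81 ± 0.15 (adjusted p = 0.00552). Ccna2 had 72.4, 58.0, 57.4 and 70.0 on immature arrays, against 107, 120.2 and 183 on progenitor arrays, and fell by 0.90 ± 0.19. Ccnd2 averaged 41.7 ± 15.7 in immature cells and 118 ± 39.6 in progenitor cells (fell by 1.22 ± 0.30, adjusted p = 0.0484), and Cdk1 averaged 238 ± 82.2 in immature cells and 394 ± 35.5 in progenitor cells (fell by 0.74 ± 0.18, adjusted p = 0.0485). Of 32 alternatives, Ccna2 was called in 25, Ccnd2 in 13 and Cdk1 in 10, and a fit of these groups alone called none of the 5 genes.

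Immature replicate 4 stood apart: its mean over the mitotic genes was 7.67, against 7.09 to 7.26 on the other immature arrays and 7.75 to 7.90 on the progenitor arrays. Without that array 12 of the 41 genes were called between immature and progenitor cells, and the share of all probe sets was not taken for that fit. The leukocyte marker Cd7 had 1255, 862, 799 and 2223 on the 4 immature arrays, and Ptprc (CD45), named here after its values were seen, had 307, 222, 223 and 630.0. Both were highest on replicate 4. They come from a list of 20 leukocyte markers, and its other members are not given by array here. The part of leukocytes in the difference of this array was not tested.

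Adult cells had less message than immature cells for 32 of the 41 genes and more for 1, against 13.0% and 8.05% of all probe sets (21.1% in either direction). The median change was -1.27, against -0.07 over all probe sets. Mitotic genes made up the larger changes: 18 of 19 fell, with a median of -1.88, while 8 of 10 S phase genes fell, with a median of -1.02. Of the G1 genes 4 fell and Ccnd1 rose, and of the inhibitors 2 fell. Adult and immature arrays did not overlap for 34 of the 41 genes with adult lower, among them all 18 mitotic genes that fell, and for 1 with adult higher, against 14.0% and 8.84% of all probe sets.

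Top2a had signals of 46.2, 43.4, 33.9 and 35.0 on adult arrays, against 283, 312, 287 and 478 on immature arrays, and fell by 2.65 ± 0.23 (adjusted p = 7.85e-08). Mki67 had 43.2, 30.3, 27.5 and 27.7 on adult arrays, against 285, 236, 186 and 354 on immature arrays, and fell by 2.52 ± 0.23. For both genes all adult arrays lay far below all immature arrays. The change was -2.17 ± 0.17 for Ube2c, -2.13 ± 0.17 for Cdk1, -2.10 ± 0.15 for Prc1, -2.0 ± 0.16 for Ccnb2 and -1.95 ± 0.19 for Ccnb1. The others that fell changed by -1.36 (Plk1) to -1.94 (Nusap1). Cdk1 itself lay between 36.2 and 47.0 on adult arrays, against 165 to 355 on immature arrays. Aurka was the mitotic gene that did not pass: it had 61.8, 39.9, 59.0 and 60.4 on adult arrays, against 46.5, 44.3, 36.8 and 43.1 on immature arrays, a change of 0.27 ± 0.14 (adjusted p = 0.204). Only replicate 2 of the adult arrays overlapped the immature range.

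S phase genes fell less in adult over immature cells, and Pcna and Mcm7 did not pass. Pcna had 992, 662, 951 and 989 on adult arrays, against 1010.3, 992, 863 and 1563 on immature arrays, a change of -0.28 ± 0.19 (adjusted p = 0.366). Mcm7 had 253, 245, 271 and 246 on adult arrays, against 359, 324, 372 and 335 on immature arrays; the groups were apart, but the change of -0.43 ± 0.17 had an adjusted p of 0.0873. The other helicase subunits fell, with changes of -1.34 ± 0.19 for Mcm5, -1.27 ± 0.20 for Mcm6, -1.17 ± 0.21 for Mcm3, -1.12 ± 0.27 for Mcm4 and -1.01 ± 0.20 for Mcm2. So did Rrm1 (-1.03 ± 0.15), Cdt1 (-1.0 ± 0.27) and Tyms (-0.53 ± 0.16). Among the G1 genes the changes were -1.26 ± 0.23 for E2f1, -1.26 ± 0.31 for Ccne2, -0.77 ± 0.21 for Cdk2 and -0.57 ± 0.11 for Ccnd3. Of the inhibitors, Cdkn1c fell by 1.79 ± 0.27, to 40.6, 45.5, 33.4 and 35.4 on adult arrays, and Cdkn1b fell by 0.57 ± 0.19, with means of 426 ± 66.9 in adult cells and 641 ± 84.6 in immature cells. A second probe set of Cdkn1b gave a change of 0.10 (adjusted p = 0.75) in this comparison. Second probe sets of Cdk2 (-0.45, adjusted p = 0.168) and of the mitotic gene Kif23 (-0.52, adjusted p = 0.0805) were not called either. Cdkn2c did not pass, with means of 163 ± 16.8 in adult cells and 235 ± 28.8 in immature cells.

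Between the ends of the series, adult cells had less message than stem cells for 30 of the 41 genes and more for 3, against 20.5% and 21.3% of all probe sets (41.8% in either direction). The median change was -0.96 over the 41 genes and 0.02 over all probe sets, and the arrays did not overlap for 29 genes with adult lower and 3 with adult higher, against 18.3% and 20.2% of all probe sets. All mitotic genes except Aurka were lower (18 of 19), with a median of -1.46, and 5 of 8 G1 genes were lower, with a median of -1.37. S phase genes gave a median of -0.66: 6 of 10 were lower, and Mcm7 was higher by 0.54 ± 0.16. Mitotic genes not called between progenitor and stem cells were lower here: Ccna2 changed by -2.54 ± 0.17, with 8.02, 9.87, 5.59 and 8.42 on adult arrays, against 98.4, 130.5, 161, 132 and 104 on stem arrays. Cdkn1b and Cdkn2c were higher in adult than in stem cells, by 1.0 ± 0.18 and 1.12 ± 0.17, and their arrays did not overlap, while Cdkn1a was lower (change -2.50 ± 0.17). Comparisons that have a stage in common share that stage's arrays. In all, 6 of the 41 genes, Birc5, Bub1b, Ccna2, Ccne2, Cdt1 and Tyms, lay under the array's median signal on all adult arrays, where changes are least well measured.

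Of the 19 mitotic genes, 10 were lower in stem Leydig cells than in bone stem cells, and 9 did not pass the test. Nusap1 was among the 10 (change -0.68 ± 0.20), while its second probe set gave -0.23 and was not called (adjusted p = 0.547). Of the 41 genes 15 were lower and 3 higher, against 8.73% and 9.79% of all probe sets (18.5% in either direction), and the median change was -0.45, against 0.05 over all probe sets. Arrays did not overlap for 16 genes with stem lower and 2 with stem higher, against 11.3% and 13.9% of all probe sets. The median of the mitotic genes was -0.51; 2 of 10 S phase genes and 3 of 4 inhibitors were lower. The 3' to 5' ratio of Actb moved with these groups, at 1.03 to 1.84 on stem arrays, against 2.38 to 2.95 on bone stem arrays, and its part in the differences was not tested. Kif20a had 98.0, 77.6, 98.3, 64.3 and 102 on stem arrays, against 260.4, 234 and 259 on bone stem arrays, a change of -1.37 ± 0.14 (adjusted p = 3.44e-07). Cdc20 had 78.9, 84.3, 88.2, 57.4 and 74.7 on stem arrays, against 202, 196 and 185 on bone stem arrays, a change of -1.19 ± 0.16. The groups did not overlap for either gene. Bone stem replicate 1 was the highest array of its group for many of these genes, with a mitotic mean of 7.89 against 7.34 on each of the other bone stem arrays; without it 15 of the 41 genes were called, 11 lower and 4 higher, and 6 of the mitotic genes (Ccnb2, Cdc20, Kif20a, Mki67, Prc1 and Ube2c).

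The G1 genes that were higher in stem Leydig than in bone stem cells were Ccnd2 (1.16 ± 0.29), Cdk2 (0.71 ± 0.22) and Cdk4 (0.71 ± 0.15). The stem and bone stem arrays overlapped for Cdk2, its second probe set gave 0.36 (adjusted p = 0.323), and it was called in 22 of 32 alternatives. Ccnd1 was high in both groups, with 578 to 1279 on stem arrays, against 1444 to 1516 on bone stem arrays, and its change of -0.49 ± 0.21 was not called. Cdkn1a had 803, 747, 1075, 760.3 and 1096 on stem arrays, against 1466, 2462 and 2392 on bone stem arrays, a change of -1.20 ± 0.19. Cdkn2c was lower in stem cells (change -0.85 ± 0.19) and so was Cdkn1b (change -0.65 ± 0.20), whose stem replicate 1 at 328 lay within the bone stem range; second probe sets gave 0.30 (adjusted p = 0.196) for Cdkn2c and 0.02 (adjusted p = 0.963) for Cdkn1b. The leukocyte markers summed to 617 to 1135 on stem arrays, against 13712 to 17495 on bone stem arrays. Their part in the differences was not tested.

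Wider lists of the same pathway gave further counts, to be read against the shares of all probe sets given above (22.0% higher and 14.7% lower in progenitor over stem cells, 8.05% and 13.0% in adult over immature cells). Of 41 other S phase genes, 23 were higher and none lower in progenitor over stem cells, with a median of 0.60, led by the polymerase alpha subunit Pola2 (1.67 ± 0.16) and the clamp loader subunit Rfc3 (1.80 ± 0.18). Of 52 other mitotic genes, 35 were higher and 2 lower, with a median of 0.72, and the condensin subunit Ncapd2 averaged 151 in progenitor cells and 26.7 in stem cells. In adult over immature cells 27 of the 41 other S phase genes were lower and 1 higher, and 42 of the 52 other mitotic genes were lower and none higher. The medians there were -0.71 and -1.28. Racgap1, a partner of Kif23 at the central spindle, fell by 2.28 ± 0.15, and Ect2, which starts the cleavage furrow, fell by 2.56 ± 0.18. Of 15 other G1 and E2F genes, 4 were higher, 5 lower and 6 not called in progenitor over stem cells, with a median of 0.03. Tfdp2, a partner of E2F factors, rose by 2.44 ± 0.14, with means of 202 in progenitor cells and 24.5 in stem cells.

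Markers of other cells moved between the same groups. The 20 leukocyte markers summed to 617 to 1135 on stem arrays, 8114 to 10452 on progenitor, 4208 to 10260 on immature and 1838 to 4698 on adult arrays. The median sum was 3087 in adult cells and 5517 in immature cells, with overlapping ranges. In adult over immature cells 8 of the 20 markers were called lower, 1 higher and 11 not, against 13.0% lower and 8.05% higher of all probe sets. The median change of the 20 was 0.15, so the lower sum did not hold for most single markers. In adult over stem cells 18 of the 20 were called higher and none lower, against 21.3% and 20.5% of all probe sets. The 10 erythroid markers measured summed to 219 to 641 on stem arrays, 4109 to 5836 on progenitor, 3086 to 5980 on immature and 1007 to 1459 on adult arrays; the globin gene Hbb averaged 2.98 in stem cells, 4153 in progenitor cells, 3536 in immature cells and 542 in adult cells. The 14 germ cell markers measured summed to 102 to 129 on stem arrays, 293 to 537 on progenitor, 592 to 1245 on immature and 1430 to 3233 on adult arrays. In adult over immature cells 2 of the 14 were called higher and 3 lower, with a median change of -0.10. In immature over progenitor cells 6 of the 14 were called higher and none lower, against 0.876% and 0.425% of all probe sets. The median change there was 0.50. The meiotic gene Sycp3, named here after its values were seen, averaged 6.17 in stem cells, 119 in progenitor cells, 72.5 in immature cells and 21.0 in adult cells. Its mean was lower in immature than in progenitor cells, where the list rose, so Sycp3 does not stand for the list. The 13 endothelial markers measured summed to 698 to 895 on stem arrays, 1518 to 2536 on progenitor, 556 to 1278 on immature and 823 to 3733 on adult arrays. The 14 smooth muscle markers summed to 14098 to 29453 on stem arrays and 21607 to 28134 on bone stem arrays. Their sums were 4673 to 5399 on progenitor, 3935 to 5957 on immature and 2242 to 5378 on adult arrays. They were thus highest in the groups where Ccnd1 and Cdkn1a were highest. In progenitor over stem cells 13 of the 14 were called lower and none higher, against 14.7% and 22.0% of all probe sets. The part of these cells in the cell cycle signals was not tested.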

How the data were processed

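Signal intensities, 1 value per probe set and array, were made by the authors with MAS5 in GCOS from 6 ug of total RNA, per the labels and the submitters' processing notes, which name no version. The deposited table holds 31099 probe sets, of which 57 control sets were left out. Gene names came from GEO's platform annotation: 20826 probe sets had 1 symbol, 436 several and 9780 none, and 20758 were matched to RefSeq by gene ID, with 0 differing symbols. A gene was read by its brightest probe set of 1 symbol; 12 of the 41 measured genes had over 1, and no gene had probe sets called in opposite directions. The deposited intensities were taken as log2(signal + 16) with no further normalization, and 1 model over all 19 arrays and 5 groups was fitted with limma 3.58.1 in R 4.3.3 (eBayes with intensity trend, Benjamini-Hochberg adjustment over 31042 probe sets), after tests on simulated data. Tables were made with Python 3.11.15 and pandas 2.3.3. The number of arrays limits the precision, as do low signals without detection calls and probe sets of 1 gene that differ. There are no counts behind the values. Groups and replicate numbers came from the sample titles. Replicate numbers were not used to pair the samples in this model. Same-numbered arrays deviated together with correlations between -0.15 and 0.26, and not every pair was above 0.1. Immature replicates 1, 2 and 3 each correlated most with the progenitor array of their own number (0.22, 0.06 and 0.09). Progenitor replicates 2 and 3, but not 1, did so with stem arrays, and adult replicate 3 alone with stem arrays. No array did so in adult over immature or stem over bone stem cells. All 41 genes are named or counted. Of the other pathway lists the called genes with the smallest adjusted p were named. Of the marker lists it was the brightest gene or the one that differed most. Exceptions to this rule were Ptprc, Sycp3, Ccng1 and Mdm2, which were named after their values were seen. Cdkn2a, Rb1 and Myc were to be named whatever their result. The genes and the lists were chosen with earlier results of these data known. Alternatives covered scaling, the pseudocount, a filter on the lowest 40% of probe sets, spread estimates, the arrays in the fit, the probe set of a gene and each array left out in turn.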

Additional observations from a re-analysis of the deposited data

Results flagged for a closer look

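In 17 of 123 tests of a group of 4 or 5 arrays for 1 gene, the highest or lowest array lay apart from the others by Dixon's 95% criterion; chance alone flags about 1 in 20 groups. Immature replicate 4 was the array in 7 of them, always the highest. It had 478 for Top2a (others 283 to 312), 204 for Ccnb1 (others 124 to 129.7), 311 for Ccnb2 (others 211 to 228), 90.6 for Plk1 (others 75.8 to 77.7), 166 for Kif11 (others 79.0 to 88.5), 344 for Nusap1 (others 179 to 204) and 431 for Cdkn1c (others 120.6 to 130.1). Adult replicate 2 had 662 for Pcna (others 951 to 992), 785 for Cdk4 (others 665 to 672), 39.9 for Aurka (others 59.0 to 61.8) and 138 for Cdkn2c (others 168 to 173). Adult replicate 1 had 43.2 for Ccnd2 (others 28.1 to 30.0) and 103 for Prc1 (others 50.4 to 56.3), and adult replicate 4 had 853 for Ccnd3 (others 909 to 912). Stem replicate 1 had 67.6 for Aurkb (others 99.3 to 111) and 328 for Cdkn1b (others 171 to 189.7), and stem replicate 5 had 943 for Ccnd3 (others 809 to 840.2).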

How the results depend on the processing

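The counts of genes called kept within 1.5 times their value under all alternatives tried in 4 of the 5 comparisons and in the test over the 4 stages. Immature over progenitor cells was the exception: 5 of 41 genes were called, and 3 without the intensity trend, 14 with array quality weights, 9 without progenitor replicate 3 and immature replicate 4, and 2 with the closest pairs of arrays averaged. With only these groups in the fit limma called 0, while 22 of 41 had an unadjusted p under 0.05. With the replicate number as a block in the fit, 3 were called. Leaving out 1 array at a time gave 2 to 12 in this comparison (12 without immature replicate 4; 2 without progenitor replicate 2 or 3 or immature replicate 2 or 3), 27 to 32 in progenitor over stem, 31 to 34 in adult over immature, 31 to 34 in adult over stem, 15 to 21 in stem over bone stem, and 39 to 40 over the 4 stages. A second probe set reversed Cdkn1b in adult over immature cells (0.10) and in stem over bone stem cells (0.021), and Cdkn2c in stem over bone stem cells (0.30), none of them called; the cause was not tested. Centring arrays on their medians moved the median of all probe sets to -0.15 in progenitor over stem and to 0.11 in adult over immature cells. Over single genes and alternatives, 6219 values kept direction and call, 158 lost the call, 71 gained it and 109 moved. With 3 to 5 arrays a group and no detection calls, changes of dim genes are the least certain.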

Other observations

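The Ink4 genes of the Cdkn2a and Cdkn2b locus, whose products restrain D-type cyclin kinases and p53 turnover, had their highest signals in stem or bone stem cells. Cdkn2a had signals of 786, 480.4, 569.5, 484 and 763 on stem arrays, 6.34 to 8.15 on progenitor, 1.19 to 13.0 on immature and 1.48 to 6.02 on adult arrays, and 397, 565 and 519.7 on bone stem arrays. It was lower in progenitor over stem cells by limma's test (change -4.73 ± 0.19, adjusted p = 9.20e-14), and stem and bone stem cells overlapped. Cdkn2b had 536, 459, 160.5, 357 and 401 on stem arrays, against 29.7, 41.7 and 54.0 on bone stem arrays (change 2.71 ± 0.29), and averaged 5.75 in progenitor cells, 6.44 in immature cells and 2.86 in adult cells. Of a wider list of other inhibitor and exit genes, 18 were measured. In progenitor over stem cells 4 of the 18 were higher, 6 lower and 8 not called, against 22.0% higher and 14.7% lower of all probe sets. The median change of the list was -0.05. Ccng1 and Mdm2 are known targets of p53, as is Cdkn1a, and were named here after their values were seen. Both were lower in progenitor over stem cells (changes -1.85 ± 0.16 and -1.35 ± 0.12). Picked in this way, Ccng1 and Mdm2 do not show how p53 targets changed as a set, and p53 activity was not tested. Ccng1 averaged 374 ± 120 in progenitor cells and 1349 ± 133 in stem cells, and Mdm2 averaged 299 ± 18.3 in progenitor cells and 790.2 ± 79.4 in stem cells. In bone stem cells Ccng1 averaged 1322 ± 91.5 and Mdm2 622 ± 7.18. Myc, which drives growth and cell cycle entry, ran differently: it averaged 159.6 in stem cells, 273 in progenitor cells, 343 in immature cells and 304 in adult cells, and 82.6 in bone stem cells. Rb1 averaged 54.7 in stem cells, 51.7 in progenitor cells, 56.4 in immature cells and 29.2 in adult cells, and 86.1 in bone stem cells; it fell by 0.69 ± 0.16 in adult over immature cells (adjusted p = 0.00349).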
